A study of Mus musculus with 203 samples.

Results

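Expression of 10 genes of the MHC class I antigen presentation pathway was described in RAW264.7 cells (hereafter RAW cells), a mouse macrophage line. The genes were chosen by gene symbol as H2-K1, H2-D1, H2-T23, H2-T24, B2m, Tap1, Tap2, Tapbp, Psmb8 and Psmb9, and each had 1 row among the 25094 genes of the RAW cell table and 1 row among the 16478 genes of the table for bone marrow-derived macrophages (BMDMs). The study examined how the corepressor subunit GPS2 and the histone demethylase KDM1A shape the response of macrophages to IL4. RAW cells that stably carried a short hairpin RNA against GFP as control (shGFP) or against Kdm1a (shKDM1A) were sequenced without IL4 and after 6 h with 20 ng/ml of IL4, giving 4 groups of 4 libraries. The matching 16 libraries of WT and Gps2 KO BMDMs were not analysed here, because the table used here for them holds the authors' own comparisons and no value per library. The study's methods list 1 hairpin against Kdm1a and describe stable lines selected with puromycin. They do not say how many separate populations were made. An effect of KDM1A and an effect of that hairpin or line therefore cannot be told apart.

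MHC class I molecules carry peptides from inside the cell to its surface, where CD8+ T cells and natural killer cells read them. The peptides are cut by the proteasome, in which the immunoproteasome subunits encoded by Psmb8 and Psmb9 can replace constitutive ones, and are pumped into the endoplasmic reticulum by the TAP transporter, a dimer of the Tap1 and Tap2 products. There tapasin, the product of Tapbp, holds the transporter close to an empty heavy chain bound to beta-2 microglobulin until a peptide fits. H2-K1 and H2-D1 encode the classical heavy chains, H2-T23 encodes the non-classical molecule Qa-1, and H2-T24 is a further heavy chain gene of the T region. In macrophages the whole pathway is known to be raised by interferons.

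The start regions of class I genes are known for a row of short control elements, and they are printed here for several members whose values the results turn on. Each window runs from 250 bases before the start given in the deposited table to 50 bases from it, in mm9 and 5′ to 3′ on the strand of the gene. Capitals mark matches, on either strand, to 4 motifs, namely an NF-kB motif of 10 bases (the first run of capitals in H2-K1 and H2-D1), AANNGAAA (the core bound by interferon regulatory factors), TGACG (the core of the cyclic AMP response element) and CCAAT. The windows are those of H2-K1 (chr17:34137229-34137528, minus strand), H2-D1 (chr17:35399789-35400088, plus strand), H2-T23 (chr17:36169597-36169896, minus strand) and B2m (chr2:121973173-121973472, plus strand). The last line gives the 225 bases between the starts of Psmb9 and Tap1 (chr17:34324276-34324500, plus strand), which those genes share because they are read away from each other.
H2-K1: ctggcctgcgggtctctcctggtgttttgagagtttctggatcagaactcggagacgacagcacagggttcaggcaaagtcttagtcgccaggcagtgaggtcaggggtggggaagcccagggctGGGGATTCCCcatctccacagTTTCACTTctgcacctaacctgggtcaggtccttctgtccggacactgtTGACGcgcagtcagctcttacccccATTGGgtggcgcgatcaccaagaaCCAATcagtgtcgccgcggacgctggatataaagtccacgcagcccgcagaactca
H2-D1: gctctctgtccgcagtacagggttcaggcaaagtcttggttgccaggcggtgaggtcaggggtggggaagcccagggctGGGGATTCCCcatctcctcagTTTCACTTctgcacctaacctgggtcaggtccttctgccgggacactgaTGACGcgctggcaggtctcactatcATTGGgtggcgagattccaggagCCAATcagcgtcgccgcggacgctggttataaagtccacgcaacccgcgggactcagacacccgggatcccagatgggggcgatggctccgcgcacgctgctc
H2-T23: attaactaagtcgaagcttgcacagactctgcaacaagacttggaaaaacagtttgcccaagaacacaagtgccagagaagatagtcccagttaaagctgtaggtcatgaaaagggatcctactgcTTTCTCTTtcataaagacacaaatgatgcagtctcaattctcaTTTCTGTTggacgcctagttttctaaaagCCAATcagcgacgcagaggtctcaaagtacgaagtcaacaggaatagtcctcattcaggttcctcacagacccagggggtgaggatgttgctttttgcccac
B2m: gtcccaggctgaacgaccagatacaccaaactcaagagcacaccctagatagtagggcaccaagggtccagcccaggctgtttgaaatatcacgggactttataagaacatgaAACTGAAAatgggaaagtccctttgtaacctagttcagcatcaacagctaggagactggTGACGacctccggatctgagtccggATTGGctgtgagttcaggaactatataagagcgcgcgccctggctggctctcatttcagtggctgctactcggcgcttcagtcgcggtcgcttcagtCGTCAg
Psmb9-Tap1: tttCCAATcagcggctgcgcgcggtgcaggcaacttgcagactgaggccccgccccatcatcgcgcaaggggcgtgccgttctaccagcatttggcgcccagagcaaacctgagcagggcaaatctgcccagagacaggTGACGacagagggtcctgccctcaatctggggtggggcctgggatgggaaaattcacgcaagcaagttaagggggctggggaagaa

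H2-K1 and H2-D1 held the same row of motifs in the same order, with the NF-kB motif followed by the interferon regulatory factor core, the cyclic AMP response element core, and CCAAT once on the opposite strand and once on the strand of the gene. Their longest shared run was 47 bases, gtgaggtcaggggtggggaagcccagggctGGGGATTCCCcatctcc, which began 155 bases before the start of H2-K1 and 201 bases before that of H2-D1. The NF-kB motif occurred in 0.124% of the 25010 windows of this length that could be read for the genes of the table, and among the members it occurred in H2-K1 and H2-D1 only. An interferon regulatory factor core lay in 6 of the 10 members' windows, against 22.7% of all windows. TGACG lay in 5 members' windows against 23.5%, and CCAAT in 8 against 38.3%. All 3 of these motifs were found together in H2-K1, H2-D1 and B2m, against 1.76% of all windows. The windows of Tap1 and Psmb9 overlap, and the TGACG and the CCAAT found in them are the same sites, counted for both genes. H2-K1 and H2-D1 also share sequence, so the members' counts are not of separate sites. The longer interferon-stimulated response element, searched as GAAA repeated after 2 free bases and containing the core, matched in H2-T23, B2m and Tap2, against 3.55% of all windows. Of the sites known for STAT proteins, TTCNNNGAA (the gamma-activated site) matched in Psmb8 only, against 8.02% of all windows, and the STAT6 site, which is the same with 1 more free base, matched in none of the members' windows, against 6.53%. These matches describe letters in the C57BL/6 reference and not binding. The motifs were chosen with the windows in view.

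In the RAW cell table, each value is on a log2 scale. How the counts were turned into these values is not given in the sources used here. The study's methods name a normalization by length (RPKM) for the gene tag counts that it plotted, whereas the header of these values names raw counts. The median SD between libraries of a group was 0.0134 for genes with a mean of 1 to 2 and 0.0598 for genes with a mean of 6 to 8, so weakly expressed genes varied least, and their fold changes may be understated. Total tags per library were between 17554721 and 27782568. Values were compared with limma in 1 model of the 4 groups over the 12905 genes that reached a value of 1 in 4 or more libraries, and a gene was called when its Benjamini-Hochberg adjusted p over all those genes was under 0.05. All 10 members passed this filter in each group. The targeted gene Kdm1a lay between 10.23 and 10.36 in the 8 shKDM1A libraries and between 11.07 and 11.23 in the 8 shGFP libraries of that table, with a log2 fold change of -0.88 ± 0.03 (SE) without IL4 and -0.79 ± 0.03 (SE) with IL4. No library stood apart from its group, and the root mean square deviation of a library from its group mean over genes was between 0.0403 and 0.0613. This deviation was highest in the IL4-treated shKDM1A libraries, at 0.0525 to 0.0613, against at most 0.0496 in the other groups. Of 9 macrophage marker genes 8 passed the filter, and in shKDM1A cells 5 were higher and 3 lower without IL4 and 6 were higher and 2 lower with IL4. Their summed linear level was 203000 to 210000 in shGFP and 233000 to 238000 in shKDM1A cells without IL4, and 162000 to 165000 and 218000 to 234000 with IL4. The lysozyme gene Lyz2 alone made up 51.6% to 62.3% of this sum and was higher in shKDM1A cells by 0.26 on the log2 scale without and 0.68 with IL4, while Adgre1, Cd14 and Fcgr1 were lower without IL4. The part of these markers in the members' change was not tested. None of the markers of B cells, natural killer cells, fibroblasts or epithelial cells passed the filter. Of the markers of T cells, dendritic cells and neutrophils, 4 of 14 passed, all far below the members (at most 5.92 for Lck, in an shKDM1A library).

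Levels of different genes were compared after subtracting the log2 of the exon length in kb, which gives a log2 value per kb. In shGFP cells without IL4, B2m was highest at 13.70 ± 0.01 (SD, n = 4), followed by H2-D1 at 12.30 ± 0.03 (SD, n = 4) and H2-K1 at 10.97 ± 0.07 (SD, n = 4). The light chain gene thus lay above each heavy chain gene by more than the spread between libraries. Next came Tapbp and Psmb8, whose libraries overlapped at 10.66 to 10.76 and 10.63 to 10.76, and then Psmb9 and H2-T23, which overlapped at 9.25 to 9.36 and 9.21 to 9.26. H2-T24 had 8.56 ± 0.06 (SD, n = 4), Tap2 8.32 ± 0.11 (SD, n = 4) and Tap1, the lowest, 7.87 ± 0.06 (SD, n = 4). In shKDM1A cells without IL4 the first 5 places were the same. H2-T23 at 10.67 and H2-T24 at 9.96 then lay above Psmb9 at 9.68 per kb, and no neighbours in the order overlapped.

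**Figure D1:**
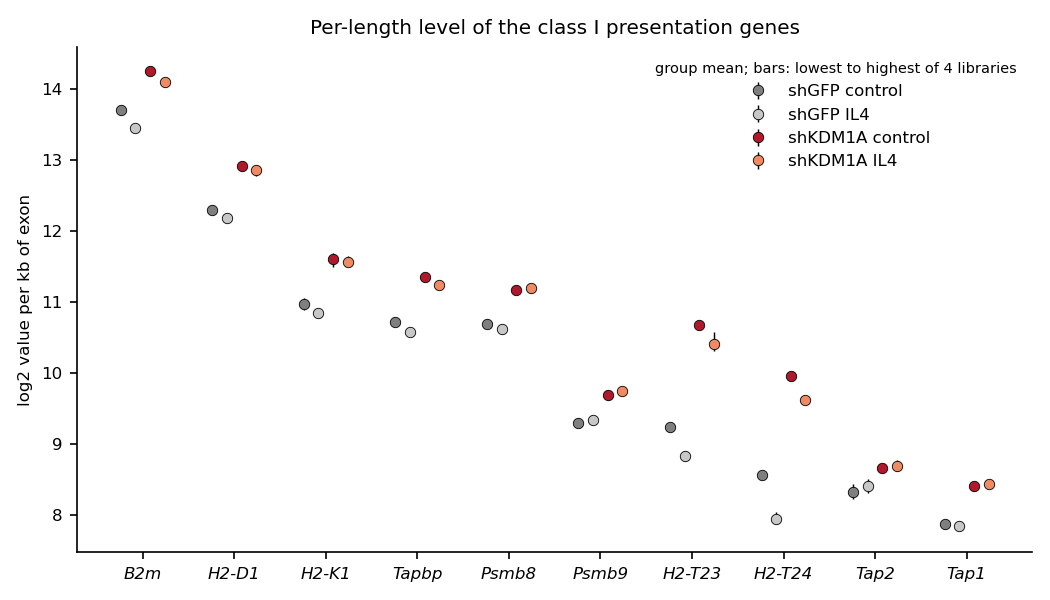
Per-length level of each member on the vertical axis (log2 value per kb of exon) in the 4 groups, as group means with bars from the lowest to the highest of 4 libraries. B2m is highest and Tap1 lowest in shGFP cells without IL4, and H2-T23 and H2-T24 move past Psmb9 in shKDM1A cells without IL4.

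The first comparison asked how expression differed between shKDM1A and shGFP cells without IL4. All 10 members were higher in shKDM1A cells, by 1.25-fold for Tap2 to 2.72-fold for H2-T23, and the 4 shKDM1A libraries lay above the 4 shGFP libraries for each of them. Among all genes tested 19.7% were called higher, 18.4% were called lower, and 19.6% had every shKDM1A library above every shGFP library. The median log2 fold change was 0.58 over the members and -0.00275 over all genes. With an absolute log2 fold change over 0.5 also required, 7 members were called higher, against 1.98% of all genes. The members were proposed after results of these data had been seen, so these calls describe the members and are not independent evidence that the pathway rose. Since RNA was taken from bulk cultures, a higher share of cells that express a gene and more RNA of it per cell cannot be told apart.

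Of the 10 members, the non-classical heavy chain genes H2-T24 and H2-T23 had the largest fold changes. For H2-T24 the shGFP libraries had log2 values of 9.74, 9.63, 9.72 and 9.62, and the shKDM1A libraries 11.09, 11.03, 11.07 and 11.14. All 4 shKDM1A libraries were more than 1 log2 unit above the highest shGFP library. The log2 fold change of H2-T24 was 1.40 ± 0.04 (SE), or 2.64-fold, with an adjusted p of 5.9e-14 from limma. For H2-T23, which presents a leader peptide of other class I heavy chains to an inhibitory receptor of natural killer cells, the shGFP libraries had 9.63, 9.64, 9.60 and 9.60 and the shKDM1A libraries 11.10, 11.02, 11.07 and 11.05. Neither gene showed any overlap between groups. The log2 fold change of H2-T23 was 1.44 ± 0.05 (SE), with an adjusted p of 6.3e-13 from limma.

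The classical heavy chain genes and B2m rose by less. For H2-K1 the shGFP libraries had 11.76, 11.59, 11.70 and 11.67 and the shKDM1A libraries 12.40, 12.21, 12.31 and 12.37. For H2-D1 they had 13.09, 13.06, 13.08 and 13.13 in shGFP and 13.74, 13.71, 13.70 and 13.65 in shKDM1A cells. Both heavy chain genes were thus about equally raised, with log2 fold changes of 0.64 ± 0.04 (SE) and 0.61 ± 0.03 (SE) and adjusted p-values of 3.6e-09 and 3.2e-10 from limma. B2m, which encodes the light chain common to classical and most non-classical molecules, had 13.48, 13.46, 13.47 and 13.49 in shGFP and 14.02, 14.02, 14.01 and 14.03 in shKDM1A cells. Its libraries hardly varied within a group, and its log2 fold change was 0.55 ± 0.02 (SE), with an adjusted p of 3.4e-12 from limma.

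Among the loading and transport genes, Tapbp rose most. Its shGFP libraries had 12.12, 12.19, 12.17 and 12.22 and its shKDM1A libraries 12.84, 12.80, 12.76 and 12.82, a log2 fold change of 0.63 ± 0.02 (SE). Tap1 had 9.46, 9.43, 9.35 and 9.47 in shGFP and 9.98, 9.98, 9.88 and 9.96 in shKDM1A cells, a log2 fold change of 0.52 ± 0.03 (SE). Tap2, which encodes the other subunit of the transporter, showed the smallest change of the set. Its shGFP libraries were the most spread, with 9.54, 9.74, 9.53 and 9.71, and its shKDM1A libraries had 9.97, 9.97, 9.89 and 9.99. The groups of Tap2 did not overlap, and its log2 fold change was 0.33 ± 0.05 (SE) with an adjusted p of 8.9e-05 from limma. The immunoproteasome genes lay between these. Psmb8 had 10.91 to 11.04 in shGFP and 11.43 to 11.45 in shKDM1A libraries, a log2 fold change of 0.47 ± 0.03 (SE). Psmb9 had 8.93 to 9.03 and 9.29 to 9.41, a log2 fold change of 0.39 ± 0.03 (SE).

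**Figure D2:**
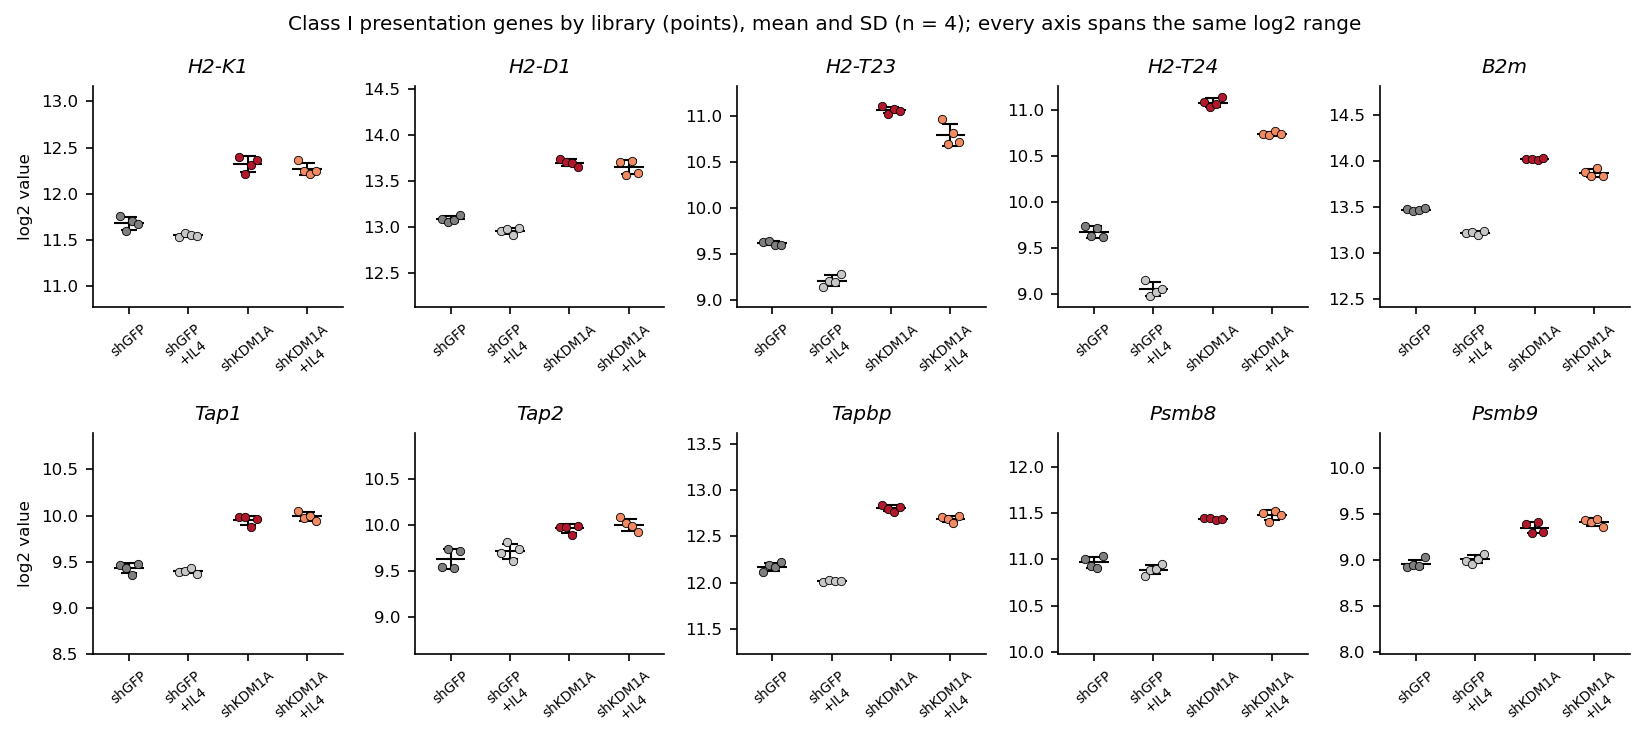
Log2 value (vertical axis) of each member in every library (points) of the 4 groups on the horizontal axis, with the mean and SD of 4 libraries, on axes that span the same log2 range. The shKDM1A libraries lie above the shGFP libraries for every member, with the widest gaps for H2-T23 and H2-T24.

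The same question was asked in IL4-treated cells. All 10 members were again higher in shKDM1A cells, by 1.22-fold for Tap2 to 3.22-fold for H2-T24, with no overlap between the groups for any of them. Over all genes 20.9% were called higher, 19.8% were called lower and 19.0% had every shKDM1A library above every shGFP library. The members' median log2 fold change was 0.66, against -0.0024 over all genes. With an absolute log2 fold change over 0.5 also required, 8 members were called higher, against 1.88% of all genes. The members left out by that limit were Tap2 and Psmb9.

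With IL4, H2-T24 had 9.16, 8.98, 9.03 and 9.06 in shGFP and 10.74, 10.73, 10.77 and 10.74 in shKDM1A libraries. Its log2 fold change was 1.69 ± 0.04 (SE), with an adjusted p of 5.6e-15 from limma. H2-T23 had 9.14, 9.21, 9.19 and 9.28 in shGFP and 10.96, 10.69, 10.81 and 10.71 in shKDM1A libraries. The IL4-treated shKDM1A libraries of H2-T23 were the most spread of any member, and the lowest was still more than 1 log2 unit above the highest shGFP library. The log2 fold change of H2-T23 was 1.59 ± 0.05 (SE), with an adjusted p of 2e-13 from limma. H2-K1 changed by 0.72 ± 0.04 (SE), H2-D1 by 0.69 ± 0.03 (SE), Tapbp by 0.67 ± 0.02 (SE) and B2m by 0.64 ± 0.02 (SE). Each of these 4 genes was raised without overlap between the groups. Tap1 and Psmb8 each changed by 0.59 ± 0.03 (SE), Psmb9 by 0.41 ± 0.03 (SE) and Tap2 by 0.29 ± 0.05 (SE). The adjusted p of Tap2 was 0.00027 from limma, and it was the highest among the members.

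**Figure D3:**
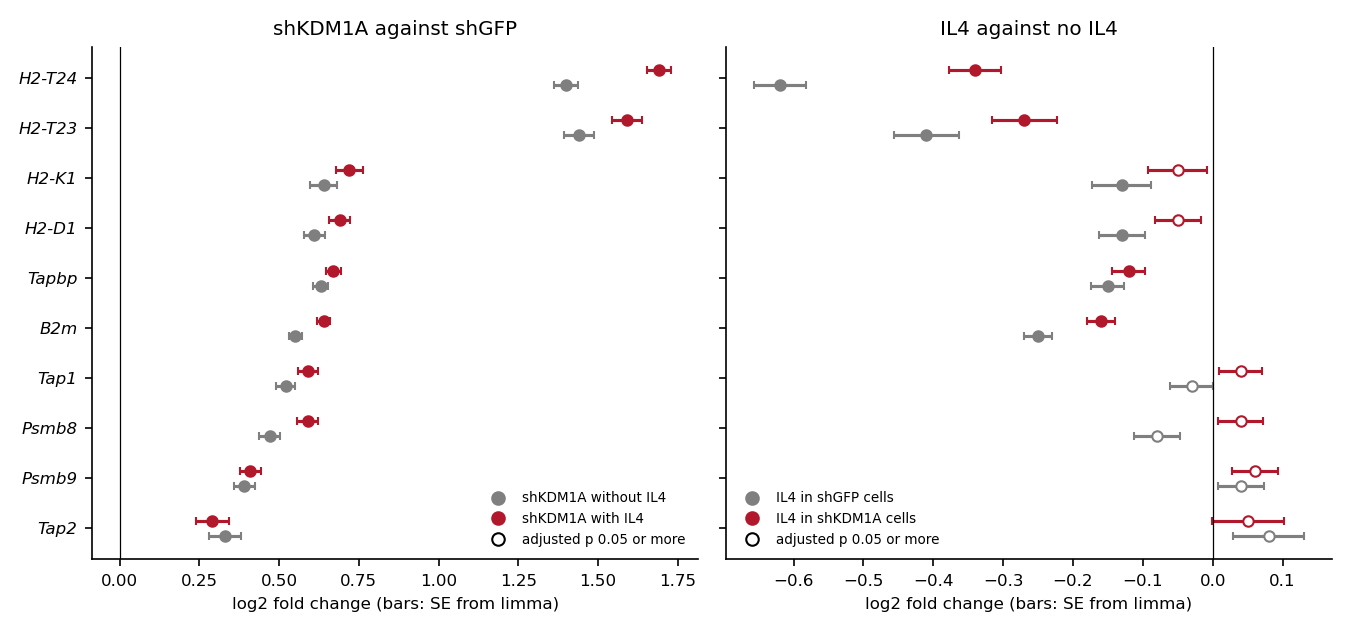
Log2 fold change of each member with its standard error (bars) for shKDM1A against shGFP cells (left) and for IL4 against no IL4 (right), filled where the adjusted p was under 0.05. On the left all members lie right of 0 in both conditions, and on the right H2-T24, H2-T23, B2m and Tapbp are filled left of 0 in both lines, H2-K1 and H2-D1 are filled in shGFP cells only, and Tap1, Tap2, Psmb8 and Psmb9 are open in both.

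The next comparison asked how IL4 alone acted on the pathway in shGFP cells. H2-T24, H2-T23, B2m, Tapbp, H2-D1 and H2-K1 fell, and these 6 also had every IL4 library below every untreated one. Over all genes 13.7% were called lower, 13.1% were called higher, and 14.4% had every IL4 library below every untreated library. The median log2 fold change was -0.13 over the members and -0.000495 over all genes. H2-T24 fell by 0.62 on the log2 scale (SE 0.04), from 9.62 to 9.74 in untreated to 8.98 to 9.16 in IL4-treated libraries, with an adjusted p of 1.9e-09 from limma. H2-T23 fell by 0.41 (SE 0.05), with an adjusted p of 4e-06 from limma. B2m fell by 0.25 (SE 0.02), from 13.46 to 13.49 down to 13.22, 13.23, 13.19 and 13.24, with an adjusted p of 9.4e-08 from limma. Changes of the last 3 genes were small, with -0.15 for Tapbp and -0.13 for each of H2-D1 and H2-K1. The call of H2-K1 was the weakest, with an adjusted p of 0.028 from limma, and it was lost when shGFP control replicate 1 or 3 or shGFP IL4 replicate 1, 3 or 4 was left out, with adjusted p-values of 0.053 to 0.095 from limma. The peptide supply genes did not pass the test. Their log2 fold changes were -0.08 for Psmb8 (adjusted p = 0.075, limma), -0.03 for Tap1 (adjusted p = 0.53, limma), 0.04 for Psmb9 (adjusted p = 0.41, limma) and 0.08 for Tap2 (adjusted p = 0.27, limma).

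In shKDM1A cells IL4 lowered 4 members, which were H2-T24, H2-T23, B2m and Tapbp, all without overlap between the groups. Over all genes 13.5% were called lower, 13.6% were called higher, and 12.7% had every IL4 library below every untreated library. H2-T24 fell by 0.34 (SE 0.04), from 11.03 to 11.14 down to 10.73 to 10.77, with an adjusted p of 3.5e-06 from limma. H2-T23 fell by 0.27 (SE 0.05), B2m by 0.16 (SE 0.02) and Tapbp by 0.12 (SE 0.02). H2-K1 and H2-D1 each had -0.05, with adjusted p-values of 0.41 and 0.28 from limma. The members' median log2 fold change was -0.05, against -0.00249 over all genes.

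Whether IL4 acted differently in the 2 lines was tested as the difference of the IL4 responses. H2-T24 was the only member called, with an IL4 response higher by 0.28 ± 0.05 (SE) in shKDM1A cells, which means a smaller fall there (adjusted p = 0.0045, limma). Over all genes 3.56% were called with a higher and 2.57% with a lower response in shKDM1A cells. The difference was 0.09 ± 0.03 (SE) for B2m (adjusted p = 0.068, limma), 0.15 ± 0.07 (SE) for H2-T23 (adjusted p = 0.20, limma) and 0.12 ± 0.05 (SE) for Psmb8 (adjusted p = 0.14, limma). The remaining 6 members had differences between -0.04 for Tap2 and 0.08, with adjusted p-values of 0.36 to 0.83 from limma. These tests share libraries with the comparisons above.

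The other class I heavy chain genes were read from the same fit. Of 23 such genes 22 had a row and 17 passed the filter, and in shKDM1A cells 12 were higher and 1 was lower both without and with IL4. With an absolute log2 fold change over 0.5 also required, 5 were higher and 0 lower in each. Without IL4 their median log2 fold change was 0.32, and with IL4 it was 0.24. H2-L rose by 0.61 ± 0.04 (SE) without and 0.68 ± 0.04 (SE) with IL4 (adjusted p = 9.3e-10 and 2.5e-10, limma). H2-Q1 rose by 0.64 ± 0.05 (SE) without IL4 (adjusted p = 2.3e-08, limma). H2-T9 rose by 0.42 ± 0.04 (SE) without and 0.44 ± 0.04 (SE) with IL4. The gene that moved the other way was H2-M3, which presents formylated peptides of bacterial and mitochondrial origin. H2-M3 was lower by a log2 fold change of -0.33 ± 0.03 (SE) without and -0.35 ± 0.03 (SE) with IL4 (adjusted p = 2.9e-07 and 1.3e-07, limma). With IL4 in shGFP cells 6 of the 17 genes fell, and H2-M3, which had the lowest p of them, fell by 0.23 (SE 0.03). Without shGFP IL4 replicate 3 there were 3 such genes. After quantile normalization the IL4-treated comparison of shKDM1A with shGFP cells had 9 genes of this list higher and 1 lower.

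Rows of the class I family are not independent. The row of H2-L lies inside that of H2-D1, with 3608 shared bases, and the rows of H2-Q6 and H2-Q8, H2-Q7 and H2-Q9, and H2-T22 and H2-T9 overlap in the same way. Class I heavy chain genes are close copies, so reads can be shared between them, and RAW cells come from the BALB/c strain while the reads were aligned to C57BL/6. How far either affects a heavy chain value was not tested. B2m lies on chromosome 2, from 121973423 to 121978818, and is outside the region. Tapbp, Psmb9, Tap1, Psmb8 and Tap2 lie on chromosome 17 with the heavy chain genes but are not copies of them.

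The neighbours of the members were counted to show how many other genes of the region were called. The 9 members on chromosome 17 lie between 34056423 and 36169646 of mm9, and 105 other genes tested lie wholly within that stretch. Without IL4, 19 of them (18.1%) were higher and 16 (15.2%) lower in shKDM1A cells. With IL4, 25 (23.8%) were higher and 9 (8.57%) lower. Without the listed class I heavy chain genes 94 remained, of which 11 (11.7%) were higher and 16 (17.0%) lower without IL4, with a median log2 fold change of -0.01. With IL4, 16 (17.0%) of the 94 were higher and 9 (9.57%) lower.

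**Figure D4:**
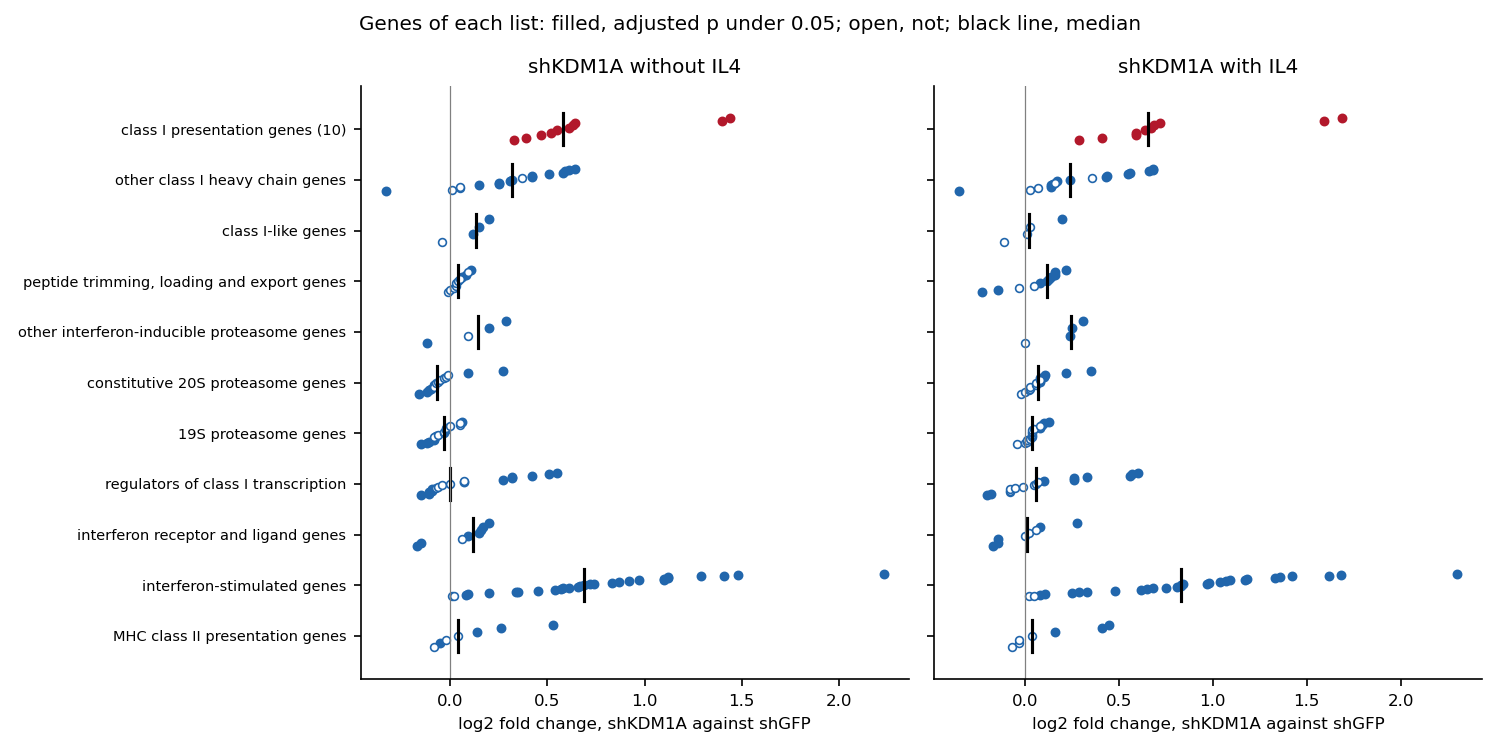
Log2 fold change of shKDM1A against shGFP cells (horizontal axis) without IL4 (left) and with IL4 (right) for each gene tested of the members and 10 lists (rows), filled where the adjusted p was under 0.05, with the median as a black line. The members' medians are 0.58 and 0.66 and those of the interferon-stimulated genes 0.69 and 0.83, while the medians of the 20S and 19S lists lie near 0.

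The remaining steps of the pathway had smaller median changes. Their counts, and those of the other lists, stand beside the shares over all genes tested. In shKDM1A cells 19.7% of all genes were called higher and 18.4% lower without IL4, and 20.9% and 19.8% with IL4. Of 11 genes for peptide trimming, loading and export, 3 were higher and none lower in shKDM1A cells without IL4, with a median log2 fold change of 0.04. With IL4, 7 were higher and 2 lower, with a median of 0.12. The count without IL4 was 1 when shGFP control replicate 3 or shKDM1A control replicate 1 was left out. The highest of these was calreticulin, encoded by Calr, a chaperone of the loading complex, at 0.22 ± 0.02 (SE) with IL4 (adjusted p = 7.6e-07, limma). The oxidoreductase Pdia3, which works beside tapasin, had 0.16 ± 0.02 (SE) with IL4 (adjusted p = 9.4e-06, limma) and 0.03 without. In shGFP cells IL4 lowered 4 genes of this list, Hspa5, Pdia3, Calr and Canx, with the largest fall of 0.38 (SE 0.02) for Hspa5, and raised 3, with log2 fold changes of 0.13 for Erap1, 0.14 for Uggt1 and 0.08 for Ganab.

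Proteasome genes were split by kind. Besides Psmb8 and Psmb9, the interferon-inducible activator genes Psme1 and Psme2 rose by 0.29 ± 0.03 (SE) and 0.20 ± 0.04 (SE) without IL4 (adjusted p = 1.9e-06 and 0.00029, limma). Psmb10, the third immunoproteasome subunit gene, had 0.09 ± 0.03 (SE) without IL4, just outside the threshold, and rose by 0.25 ± 0.03 (SE) with IL4 (adjusted p = 1.9e-05, limma). Pomp, a proteasome assembly factor, was lower by a log2 fold change of -0.12 ± 0.03 (SE) without IL4 (adjusted p = 0.0018, limma) and had 0.00 with IL4. Of 14 constitutive 20S genes 2 were higher and 5 lower without IL4, and 6 were higher and none lower with IL4. Of 17 genes of the 19S particle 1 was higher and 6 lower without IL4, and 4 were higher and none lower with IL4. After quantile normalization 3 of the 20S and 1 of the 19S genes were called higher with IL4, and 9 and 8 lower without. The 19S count with IL4 was 2 without shGFP IL4 replicate 3 or shKDM1A IL4 replicate 1. Psma4 stood apart among the 20S genes at 0.27 ± 0.03 (SE) without and 0.35 ± 0.03 (SE) with IL4 (adjusted p = 2.7e-07 and 1.3e-08, limma).

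Known regulators of class I transcription moved in both directions. Of 17 such genes 7 were higher and 5 lower without IL4, and 7 were higher and 2 lower with IL4. Stat2 and Irf9 act together in the response to type I interferon. Stat2 rose by 0.55 ± 0.03 (SE) without and 0.60 ± 0.03 (SE) with IL4 (adjusted p = 1.5e-10 and 5.2e-11, limma). Irf9 rose by 0.42 ± 0.02 (SE) without and 0.56 ± 0.02 (SE) with IL4. Irf1, a direct activator of several members, rose by 0.32 ± 0.04 (SE) without IL4 (adjusted p = 1.9e-06, limma). Nlrc5, the class I transactivator, was named after its values were seen, and rose by 0.32 ± 0.05 (SE) without and 0.26 ± 0.05 (SE) with IL4 (adjusted p = 0.00012 and 0.00061, limma). The subunits of the RFX and NFY complexes, which bind the promoters of class I and class II genes and of which some were called lower, had log2 fold changes between -0.20 and 0.07 in both comparisons. Creb1 was lower by a log2 fold change of -0.15 ± 0.04 (SE) without and -0.18 ± 0.04 (SE) with IL4 (adjusted p = 0.0041 and 0.0011, limma). Nfkb1 was called lower without IL4, at -0.09 ± 0.02 (SE), and higher with IL4, at 0.10 ± 0.02 (SE). Rela and Atf1 were called in neither comparison.

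Interferon-stimulated genes were also higher in shKDM1A cells. Of 30 such genes 29 passed the filter, and 27 were higher and none lower in shKDM1A cells, both without and with IL4. The list was chosen with earlier results of these data known, and its count is not independent evidence of a direction. Its median log2 fold change was 0.69 without and 0.83 with IL4. Irf7, a factor that amplifies type I interferon, rose by 2.23 ± 0.02 (SE) without and 2.30 ± 0.02 (SE) with IL4 (adjusted p = 1.3e-18 and 4.5e-19, limma). Usp18, which dampens interferon signalling, rose by 1.29 ± 0.03 (SE) without and 1.62 ± 0.03 (SE) with IL4. IL4 lowered 17 of the 29 genes in shGFP cells and 9 in shKDM1A cells, and raised none in either. Of 10 interferon receptor and ligand genes 8 passed the filter. Ifng was listed at 0 in every group, and Ifnb1 was at -0.20 to -0.19, below the filter. In shKDM1A cells 5 of the 8 genes were higher and 2 lower without IL4, and 2 were higher and 3 lower with IL4, with log2 fold changes between -0.17 and 0.28. The count called with IL4 was 3 without shGFP IL4 replicate 3 or shKDM1A IL4 replicate 4. Interferon itself was not measured, and its part in the members' change was not tested.

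MHC class II presentation genes, which serve CD4+ T cells, were read in the same way. Of 13 such genes 7 passed the filter, and 3 were higher and 1 lower without IL4, and 3 were higher and none lower with IL4. The genes that rose were the cathepsin gene Ctss by 0.53 ± 0.02 (SE), H2-DMa by 0.26 ± 0.04 (SE) and Ifi30 by 0.14 ± 0.03 (SE) without IL4. Cd74, the invariant chain, had log2 fold changes of -0.08 without and -0.07 with IL4 between the lines, and IL4 raised it by 0.82 ± 0.03 (SE) in shGFP cells (adjusted p = 1e-11, limma). Of 7 class I-like genes 4 passed the filter, and Procr was the one higher in shKDM1A cells in both conditions, by 0.20 ± 0.03 (SE) in each. Without shKDM1A IL4 replicate 3, 2 of the 4 were called with IL4. Hfe, an iron regulator with a class I fold, rose by 1.07 ± 0.04 (SE) with IL4 in shGFP cells (adjusted p = 2.3e-12, limma), opposite in direction to the heavy chain members.

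Members also resembled each other across the 16 libraries. Pearson's r of a member with the mean of the standardised values of the other 9 was between 0.863 for Tap2 and 0.994 for H2-D1. Outside the set, the 10 genes most like the members' mean had r of 0.995 to 0.997 over the 16 libraries. They were Fth1 (ferritin heavy chain), Eef1a1 (a translation elongation factor), LOC547349, Ctsl (cathepsin L), Oas1a, Lyz1 (lysozyme), H2-L, Usp18, Cmpk2 and Lgals9 (galectin-9). LOC547349 overlaps the row of H2-D1 by 1719 bases and H2-L lies inside it, so both share sequence with a member. Lyz1 showed the widest difference of the 10, from 13.41 in shGFP to 16.27 in shKDM1A cells without IL4. The libraries share 4 groups, so these values are given as a description with no test.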

How the data were processed

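RNA-seq of 16 RAW cell libraries was used. The remaining samples of the series were not analysed here. Reads were aligned by the authors to mm9 (per the labels with HISAT2 and Bowtie2) and counted with HOMER on the exons of RefSeq genes, reads on both strands together, as the header gives it. The authors deposited normalised log2 values per gene and library with decimal commas, beside their own DESeq2 comparisons (fold changes and p-values). The step from counts to these log2 values is not given in the sources used here. Reads of antisense or overlapping genes therefore cannot be told apart. The authors' comparison columns, 9 in this table and 12 in the BMDM table, were not used, and the BMDM table holds nothing else per gene beyond annotation.

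Groups were taken from the labels. The study's methods state in general that experiments used biological replicates. Neither they nor the labels say how the 4 libraries of each group were cultured, so p-values measure the spread between these libraries. Values were tested as deposited, with no pseudocount, with limma 3.58.1 in R 4.3.3, after the filter of at least 1 in at least 4 libraries, in 1 model of 4 group means without a block. Calls used a Benjamini-Hochberg adjusted p under 0.05. The fit was tested on simulated data. The precision is limited by 4 libraries per group, and 17554721 to 27782568 tags per library lie behind the values.

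The members and gene lists were chosen with earlier results of these data known. Named were every member, up to 4 genes of each list with the lowest p in a comparison, further genes where a count was spelled out or a gene was singled out (Erap1, Uggt1, Ganab, Nlrc5, Creb1, Nfkb1, Rela, Atf1, Ifnb1, Ifng, Lck and macrophage markers, chosen after their values were seen), Kdm1a, the 10 genes most like the members' mean, and counts of the genes between the chromosome 17 members. Alternatives were no filter, a filter of at least 5, only the compared groups in the model, a replicate block, quantile normalization, centring on the median, a prior variance with a trend, an absolute log2 fold change over 0.5, and leaving out each library. Start regions were read from NCBIM37 (mm9), the build of the deposited coordinates, and 84 rows gave no complete window. Start regions are printed for some members only, and 1 start region and the values of 1 regulator gene are left out as not reported here. Libraries of the same number showed no common pairing: the correlation of their deviations was between -0.343 and 0.273, and over 0.1 in 3 of 24 pairs.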

Additional observations from a re-analysis of the deposited data

Results flagged for a closer look

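H2-T24 was the member whose IL4 response differed between the lines in a test of the difference itself. In shGFP cells it fell by 0.62 on the log2 scale and in shKDM1A cells by 0.34, so the response was higher by 0.28 in shKDM1A cells (adjusted p = 0.0045, limma). The difference was between 0.26 and 0.32 over the alternatives, with adjusted p-values of 0.00096 to 0.021 from limma. None of the 40 sets of 4 libraries of the members held a library that stood apart by Dixon's test.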

How the results depend on the processing

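In the comparisons of shKDM1A with shGFP cells all 10 members were called higher under every alternative run without a limit on the fold change, and no member changed sign in any of the 5 comparisons. Of 119 recomputed counts of members called, 112 were within 1.5 times of the reported count. Requiring an absolute log2 fold change over 0.5 left 1 member for IL4 in shGFP cells, 0 for IL4 in shKDM1A cells and 0 for the difference of the IL4 responses. Quantile normalization and a trended prior variance each gave 2 members for that difference, B2m being the added one, and leaving out 1 library gave 1 to 2 (2 without shKDM1A IL4 replicate 2 or 4, again with B2m). Quantile normalization also moved the members' median log2 fold change in IL4-treated shKDM1A against shGFP cells to 0.61. The replicate block changed no member's call (10, 10, 6, 4 and 1 members called in the order of the report), and the libraries share only a number. Of single members, H2-K1 lost its call for IL4 in shGFP cells without the filter (adjusted p = 0.091, limma) and without any of the 5 libraries named above, and Psmb8 gained one without shGFP control replicate 3 or shGFP IL4 replicate 4 (adjusted p = 0.037 and 0.031, limma). The cause was not tested. The class II list had 6 in place of 3 genes called in IL4-treated shKDM1A against shGFP cells with no filter or a trended prior. The small spread of low values limits what can be said of weakly expressed class I genes.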
